A study of Drosophila melanogaster with 20 samples.

Results

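The X chromosome windows are the stretches of X over which 2 histone marks, trimethylation and dimethylation of lysine 27 of histone H3 (H3K27me3 and H3K27me2), were profiled in larval salivary glands of Drosophila melanogaster. They were chosen by chromosome name alone, with no measured value involved. Each window is 50 kb wide and starts 5 kb after the one before it, so neighbouring windows share most of their sequence. X held 4452 of the 27631 windows of the H3K27me3 profiles (16.1%) and 4449 of the 27611 windows of the H3K27me2 profiles (16.1%). The window centres ran from 25000 at the telomeric end to 22395000 at the pericentric end of X (build dm3, BDGP release 5, as are all coordinates here). Where non-overlapping windows were needed, every 10th was taken, which left 445 on X and 1925 on the 4 autosomal arms 2L, 2R, 3L and 3R.

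The study compared SuUR mutants with the y,w strain (yw), which served as wild type. SuUR (Suppressor of UnderReplication) encodes SUUR, a chromatin protein without which regions of polytene chromosomes that normally lag in replication are copied more fully. Glands were taken from third-instar larvae raised at 23 °C, and the labels give 20 pairs of glands a sample. Per the labels, chromatin was precipitated with a Cell Signaling antibody against H3K27me3 (catalogue number 9733) or a Millipore antibody against H3K27me2. Each genotype had 1 ChIP library and 1 input library for each mark, 8 gland libraries in all, and the 12 embryo libraries of the series, 3 replicates a group, were not analysed here. The sex of the larvae, which decides whether a larva carries 1 copy of X, is not given in the sources used here.

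H3K27me3 is laid down by the enzyme Enhancer of zeste in Polycomb repressive complexes and marks genes that are held silent through development, among them many developmental regulators. The same enzyme lays down H3K27me2, which covers much of the transcriptionally inactive genome at lower contrast. In polytene chromosomes of salivary glands, late-replicating silent stretches (intercalary heterochromatin) and the chromatin beside the centromere are under-replicated, and SUUR is bound there. In male flies the single X carries the dosage compensation complex, which raises the transcription of its genes.

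All values are log2 ratios of ChIP over input, deposited after quantile normalization of the 2 genotypes within each mark. The sorted values of SuUR and yw were the same over the whole genome, so a higher value in SuUR on X is higher relative to the other chromosomes and is not an absolute gain. There was 1 profile per genotype and mark and no read depth came with the values. No replicate spread, interval or test could therefore be given, and the comparisons are descriptions of these profiles. Consecutive windows on X differed by a median of 0.055 in the SuUR H3K27me3 profile and 0.045 in the yw one. Of these steps, 95% were at or under 0.2 and 0.17. Such windows share most of their sequence, so the steps describe smoothness and do not measure the scatter of a value. Over non-overlapping X windows, SuUR minus yw of H3K27me3 had an SD of 0.27, which also holds differences along X.

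Windows were missing on X at 3 places: 16 windows between centres 2710000 and 2795000 in both marks, 1 H3K27me3 window between 21565000 and 21575000, and a stretch from 21710000 that lacked 6 windows up to 21745000 for H3K27me3 and 10 up to 21765000 for H3K27me2. Around the last places the values were less steady. Among centres from 21465000 to 21865000, 95% of the steps reached up to 0.29 in SuUR and 0.33 in yw for H3K27me3, and up to 0.29 in SuUR and 0.43 in yw for H3K27me2. How many reads lay behind these windows is unknown. Shares, bins, runs and end values that these windows touch are also given without the 116 H3K27me3 and 113 H3K27me2 windows that lay within 100 kb of a place without windows, where that moved the value by more than 1.5 times or turned its direction.

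**Figure D1:**
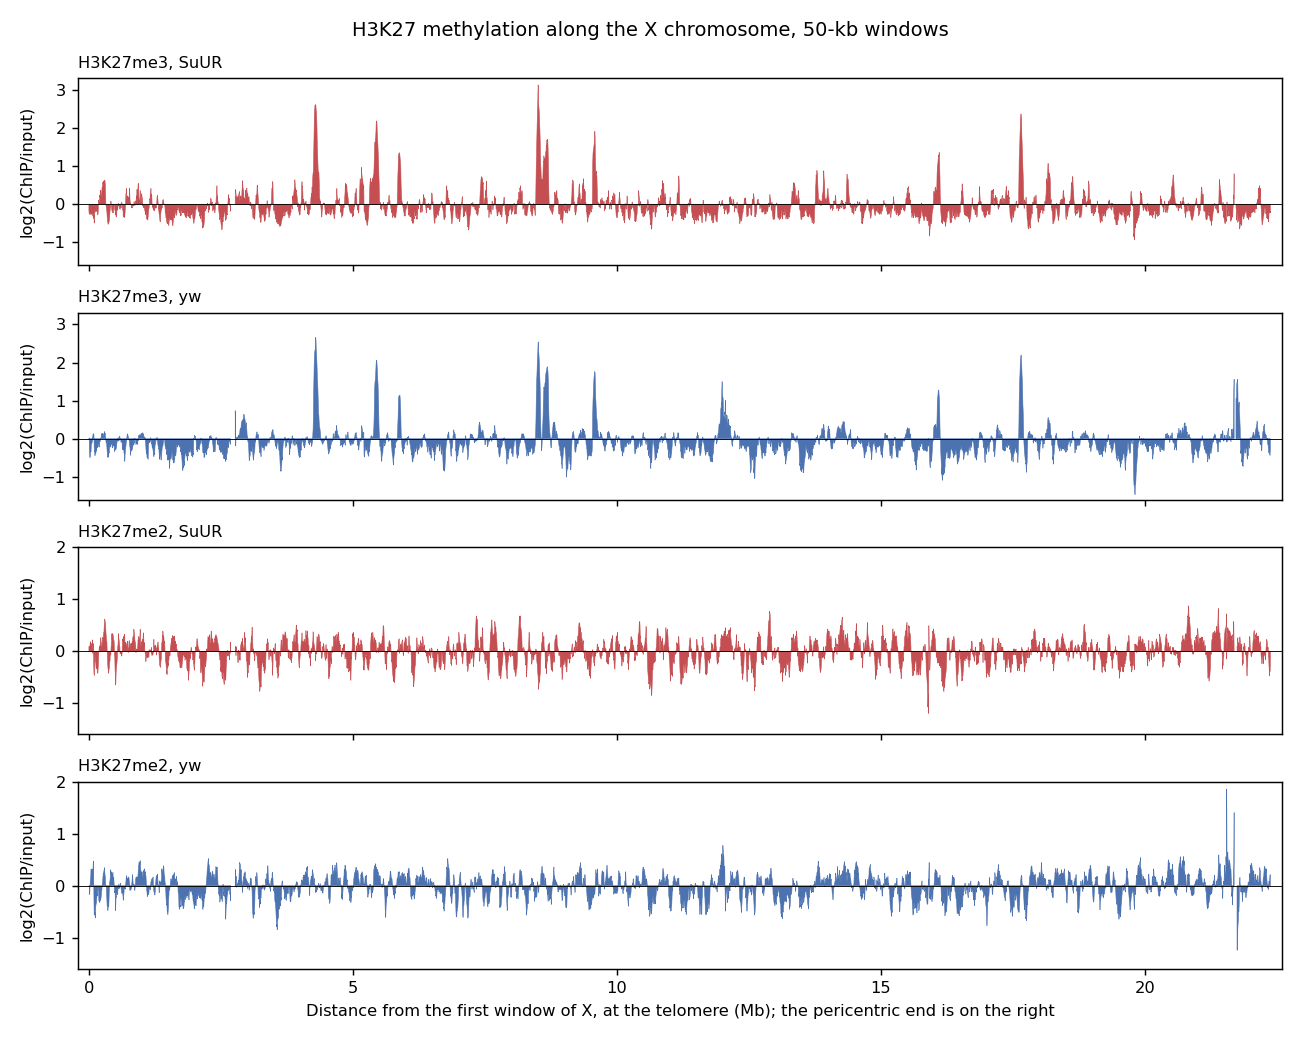
Log2(ChIP/input) of H3K27me3 and H3K27me2 in SuUR (red) and yw (blue) for every X window, against the distance in Mb from the first window at the telomere; blank stretches have no windows. The same narrow H3K27me3 peaks stand out in both genotypes, the highest at 3.13 in SuUR, and the tall H3K27me3 signals of yw near 12 Mb and near the pericentric end are lower in SuUR.

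H3K27me3 on X lay slightly below the autosomal arms in both genotypes. The X median was −0.12 in SuUR (quartiles −0.265 and 0.06) and −0.15 in yw (quartiles −0.305 and 0.04). The median of the autosomal arms was −0.04 in SuUR and −0.09 in yw. X was thus lower than the arms by 0.08 in SuUR and by 0.06 in yw (0.085 and 0.035 when every 10th window was counted from the 6th), and it was also below each arm taken alone: in SuUR the arms had medians of −0.03 on 2L, −0.065 on 2R, −0.05 on 3L and −0.025 on 3R, and in yw −0.06, −0.135, −0.08 and −0.09 in the same order. The gap was smallest to 2R in yw. On the log2 scale these gaps were smaller than the spread along X, where the means of 1-Mb bins had an SD of 0.147 in SuUR and 0.131 in yw. In percentile ranks they were not: X minus the arms was −12.2 in SuUR and −9.42 in yw, against spreads of 9.53 and 9.10. The order of the arms in yw also depended on the summary. By the median of 1-Mb bin means, X (−0.083) was not below 2R or 3L in yw.

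For H3K27me2 no such offset was seen. The X median was 0.0 in SuUR and −0.005 in yw, and X differed from the autosomal median by −0.005 in SuUR and −0.01 in yw, which is within 2 of the 0.005 steps in which the values are written.

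**Figure D2:**
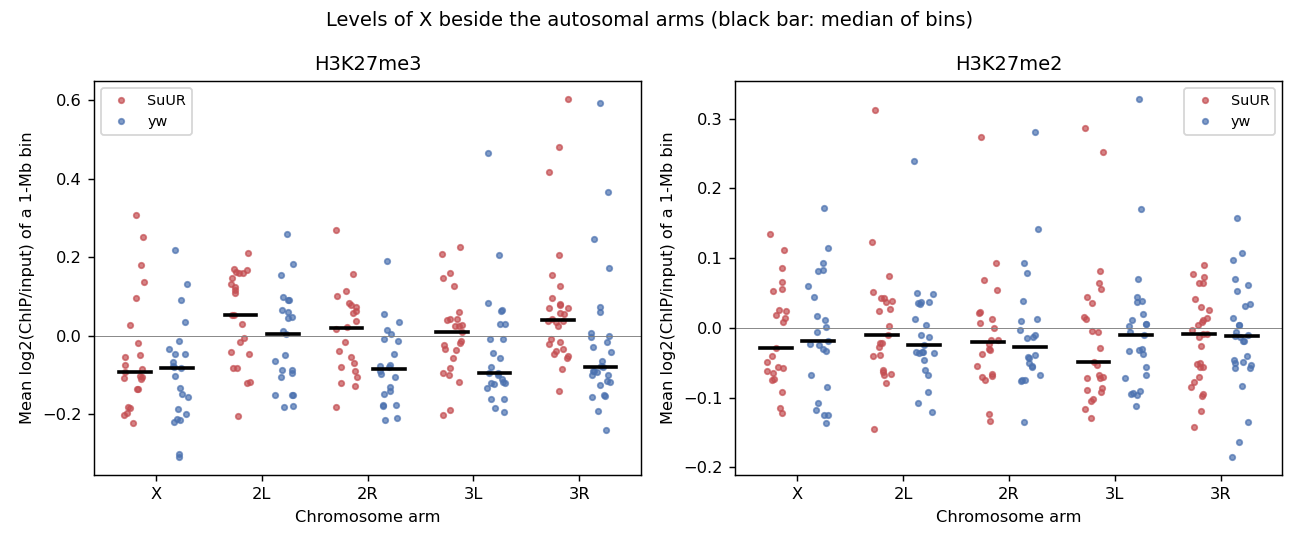
Means of log2(ChIP/input) in 1-Mb bins (points) of X and the 4 autosomal arms, SuUR (red) left of yw (blue), with the median of the bins as a black bar; left, H3K27me3, right, H3K27me2. The H3K27me3 bars of X sit below those of the arms in SuUR, whereas the bins of X and of the arms overlap widely in each panel.

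The offset showed at the low end of the H3K27me3 scale. A window was called low where its mean over both genotypes was at or below the 5th percentile of the autosomal arms (−0.37), and high at or above their 95th percentile (0.665). On X, 500 windows were low (11.2%), against 4.76% to 5.55% on the single autosomal arms. High windows numbered 141 (3.17%), against 3.53% to 6.61% on the arms. With percentiles set in each genotype separately, 9.32% of X windows were low in SuUR and 9.91% in yw. The surplus of low windows went with the offset of the whole chromosome: after X was shifted up by 0.065 to the autosomal median, 5.82% of its windows were low, while 3.44% were high.

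The low windows were scattered along X. They formed 100 runs of consecutive windows, or 4.47 runs per Mb, against 2.30 to 2.61 per Mb on the arms. They occurred in 22 of the 23 bins of 1 Mb, and in 18 of these bins they made up over 5% of the windows. The bin from 1 to 2 Mb had the highest share (30.5%), followed by that from 19 to 20 Mb (29.0%), and the bin from 14 to 15 Mb had none. The longest low run spanned 32 windows with centres from 1495000 to 1650000 and averaged −0.43 in SuUR and −0.53 in yw. The lowest H3K27me3 window of X lay at 19825000 in SuUR (−0.93, where the lowest autosomal window was −0.675) and at 19835000 in yw (−1.465, where the lowest autosomal window was −1.8).

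High windows formed 11 runs on X, 0.49 per Mb against 0.73 to 1.31 per Mb on the autosomal arms. X had fewer such domains than the arms, but it held the highest single window on any of the 5 arms in either genotype. In SuUR the highest H3K27me3 window of X was 3.13 at 8530000, where yw had 2.505, and the autosomal maximum in SuUR was 2.475. In yw it was 2.66 at 4320000, where SuUR had 2.615, and the autosomal maximum in yw was 2.615.

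The 8 strongest H3K27me3 domains, ordered by their highest window, made up most of the high signal and were present in both genotypes. From the telomere inwards, the first spanned centres 4275000 to 4380000 and averaged 1.80 in SuUR and 1.73 in yw. The next spanned 5425000 to 5510000 with 1.67 in SuUR and 1.52 in yw. A weaker domain from 5880000 to 5930000 averaged 1.21 in SuUR and 0.98 in yw. These 3 domains were higher in SuUR by 0.06, 0.15 and 0.23.

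A pair of domains lay close together in the bin from 8 to 9 Mb, and its members differed in direction. The domain from 8495000 to 8580000 averaged 2.08 in SuUR and 1.74 in yw, a difference of 0.34, the largest of the 8. Its neighbour from 8625000 to 8730000 averaged 1.31 in SuUR and 1.49 in yw, a difference of −0.17, and was the only one of the 8 that was lower in SuUR. The gap between them was filled in SuUR: at 8600000 the ratio was 0.645 in SuUR and −0.25 in yw. A run of 7 windows from 8580000 to 8610000 there averaged 0.71 in SuUR and −0.025 in yw.

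The remaining 3 domains were closely matched between genotypes, with differences of 0.067 to 0.071. That from 9565000 to 9635000 averaged 1.34 in SuUR and 1.27 in yw, that from 16085000 to 16135000 averaged 1.12 in SuUR and 1.05 in yw, and that from 17640000 to 17715000 averaged 1.70 in SuUR and 1.63 in yw. Over the 8 domains the median difference was 0.07, close to the median of 0.065 over all X windows. Windows beside a domain were taken over 100 kb on either side, starting 50 kb beyond its first and last centres. High windows and the windows that overlap the ends of the domain were thus left out. These flanks had means from −0.35 to 0.01 in SuUR and from −0.46 to 0.21 in yw.

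Set against the level beside them, H3K27me2 had no common direction in these domains. Its median over the 8 domains was −0.07 in SuUR and 0.00 in yw, and in the same flanks beside them it was −0.06 in SuUR and −0.03 in yw. Inside the domain it was below the level beside it in 4 of 8 domains in SuUR and in 3 of 8 in yw. The 4 include the domain from 8625000, which was level in SuUR (−0.0427 inside and −0.0426 beside it). The domain from 5425000 had the largest excess in yw, with 0.11 inside and −0.01 beside it in SuUR, and 0.33 inside and −0.09 beside it in yw. H3K27me2 was lower in SuUR than in yw inside 7 of the 8. The widest gap was in the domain from 8495000 to 8580000, where H3K27me3 was highest: H3K27me2 averaged −0.40 there in SuUR and −0.04 in yw. At 8550000, near the middle of that domain, H3K27me3 was 2.48 in SuUR and 2.105 in yw, and H3K27me2 was −0.615 in SuUR and 0.015 in yw.

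**Figure D3:**
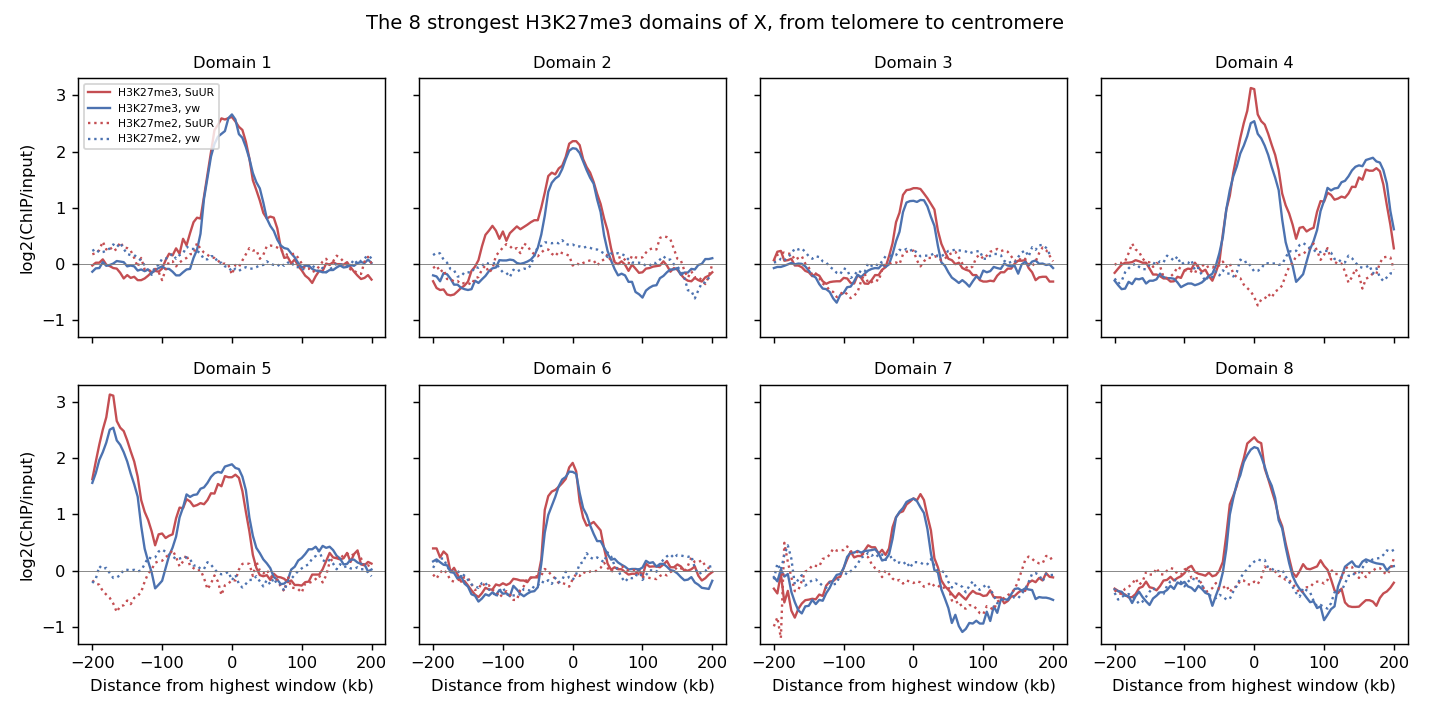
Log2(ChIP/input) in SuUR (red) and yw (blue) around the 8 strongest H3K27me3 domains of X, numbered from the telomere, against the distance in kb from the highest window; solid lines are H3K27me3 and dotted lines H3K27me2. H3K27me3 peaks at nearly the same place in both genotypes, with the largest gap in height in domain 4 (3.11 in SuUR and 2.54 in yw at distance 0), and domain 4 also shows a dip of H3K27me2 in SuUR (mean −0.40) that is nearly absent in yw (mean −0.04).

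The other 3 high runs were short and unequal between genotypes. The run from 12010000 to 12015000 averaged 0.08 in SuUR and 1.42 in yw, and that from 21705000 to 21710000 averaged 0.47 in SuUR and 1.41 in yw. By contrast, SuUR was the higher genotype between 18185000 and 18200000 (0.99 in SuUR and 0.50 in yw). The run from 21705000 to 21710000 ends at a stretch without windows, and the largest step of the yw profile on X (1.045) was at 21705000. Without the windows near places that have none, 10 high runs remained.

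Between the genotypes, the values of X as a whole were close to those of the autosomal arms. The median of SuUR minus yw for H3K27me3 was 0.065 over the X windows (quartiles −0.09 and 0.215), with 278 of 445 windows higher in SuUR (62.5%). On the autosomal arms it was 0.07, with 62.0% of windows higher in SuUR. The excess depended on the scaling: with quantile normalization over X and the 4 arms alone the X median was 0.0025 and 50.6% of windows were higher in SuUR, and with profiles centred on the arms it was 0.01 and 51.7%. For H3K27me2 the median was −0.005 on X and −0.005 on the arms, and 219 of 445 X windows were higher in SuUR (49.2%), against 48.6% on the arms.

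Large differences were also about as frequent on X as on the arms. A difference of at least 0.5 on the log2 scale, or 1.41-fold, was counted. H3K27me3 was higher in SuUR by that much in 214 X windows (4.81%), against 4.93% of autosomal arm windows and 5.16% of the windows of all chromosomes. It was lower in SuUR in 92 X windows (2.07%), against 2.06% of arm windows and 8.32% over all chromosomes, which include heterochromatic scaffolds. The arms themselves ranged from 0.25% on 3R to 3.78% on 3L. The balance of higher and lower windows moved with it too: renormalized over the 5 arms, 2.18% of X windows were higher and 3.75% lower in SuUR, and centred on the arms, 3.26% and 3.01%. Without the windows near places that have none, the shares were 4.91% higher and 1.55% lower.

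H3K27me2 was higher in SuUR by at least 0.5 in 92 X windows (2.07%), against 1.57% of arm windows and 3.95% of all windows. It was lower in 45 (1.01%), against 1.38% of arm windows and 3.53% of all windows. The arms ranged from 0.86% to 2.64% for higher and from 0.88% to 1.84% for lower windows, and X lay within both ranges. Without the windows near places that have none, 1.91% were higher and 0.876% lower.

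Windows with lower H3K27me3 in SuUR were concentrated in a few long runs, whereas those with higher H3K27me3 were split into many short ones. The 92 lower windows formed 16 runs, of which the longest 2 held 51 windows (55.4%), and the longest 5 held 78 (84.8%). Without the windows near places that have none, 67 windows in 9 runs remained lower. The 214 higher windows formed 75 runs, and 1 of these reached 10 windows or more.

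The longest run of lower H3K27me3 comprised 34 windows with centres from 11980000 to 12145000. It averaged −0.10 in SuUR and 0.71 in yw, a difference of −0.80 on the log2 scale. Sampled at 25-kb steps, the ratios at 12000000, 12025000, 12050000, 12075000 and 12100000 were 0.035, 0.035, −0.07, −0.12 and −0.07 in SuUR, and 0.945, 1.085, 0.575, 1.01 and 0.63 in yw. SuUR thus stayed near its X median of −0.12 in the run, and the yw values formed a broad hill. Beside the run SuUR was lower on the telomeric side (−0.43 at 11900000) and higher on the other (0.14 at 12200000). H3K27me2 in the same windows averaged 0.28 in SuUR and 0.17 in yw, but its shape differed: it was lower in SuUR at 12025000 (0.205 in SuUR, 0.70 in yw) and higher in SuUR at 12075000 (0.355 in SuUR, −0.265 in yw).

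The next longest run covered 17 windows from 21745000 to 21825000, right beside the proximal place without windows. It averaged −0.38 in SuUR and 1.00 in yw, a difference of −1.38, and it contained the largest H3K27me3 difference of X (−1.87 at 21780000, with −0.475 in SuUR and 1.395 in yw; the most negative autosomal window was −1.56). H3K27me2 went the opposite way there, with 0.16 in SuUR and −0.54 in yw, and 1 run of higher H3K27me2 from 21765000 to 21800000 averaged 0.14 in SuUR and −0.86 in yw. These windows are among the unsteady ones described above, and the part that thin coverage may have in them was not tested.

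The run after these held 12 windows from 17805000 to 17860000 and averaged −0.57 in SuUR and 0.13 in yw. It bordered on the opposite difference: 9 windows from 17745000 to 17785000, on its telomeric side, averaged 0.05 in SuUR and −0.63 in yw. A dip was thus present in both genotypes but lay at 17775000 in yw (−0.88, against 0.085 in SuUR) and at 17825000 in SuUR (−0.64, against 0.065 in yw).

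**Figure D4:**
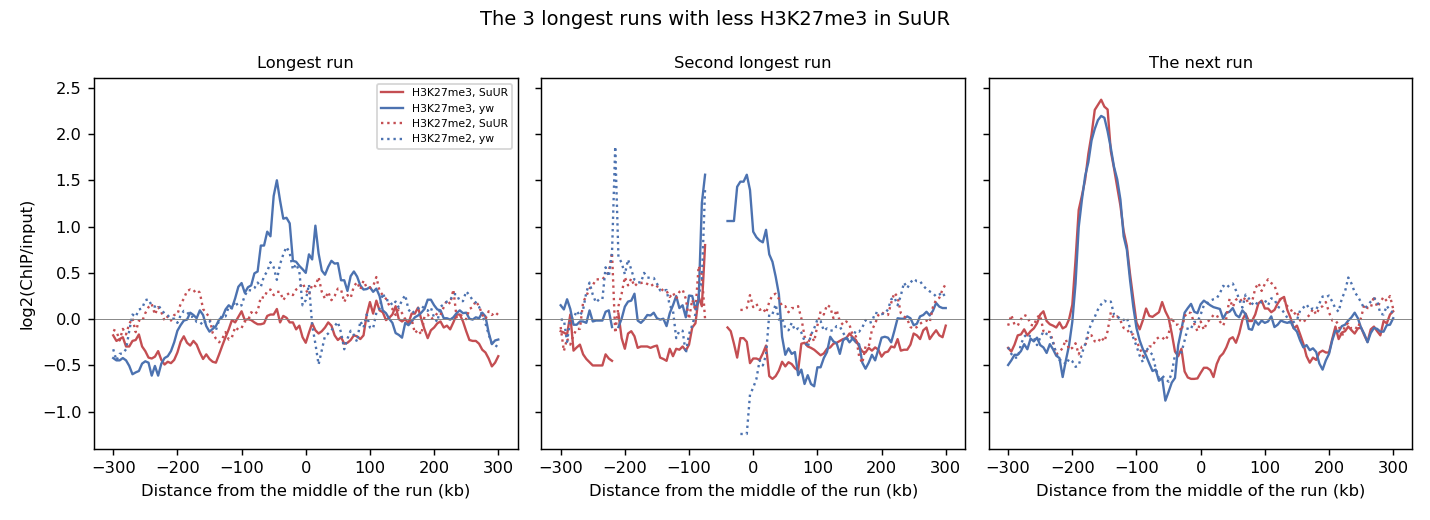
Log2(ChIP/input) in SuUR (red) and yw (blue) around the 3 longest runs with lower H3K27me3 in SuUR, against the distance in kb from the middle of the run; solid lines are H3K27me3, dotted lines H3K27me2, and breaks are places without windows. The yw hill of the longest run (mean 0.71) is missing in SuUR (mean −0.10), the middle panel shows the break beside the next run, and the last panel shows a dip that lies at different places in the 2 genotypes.

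The longest runs of higher H3K27me3 were of different kinds: in some yw was low, and in others SuUR was raised. The 11 windows from 12585000 to 12635000 averaged 0.08 in SuUR and −0.71 in yw, and included 12625000 with −0.025 in SuUR and −1.04 in yw. The largest positive difference of X, 1.11, was at 12615000 in the same run. The 9 windows from 13785000 to 13825000 had a raised level in SuUR (0.705) and a level near 0 in yw (0.01). The same form was seen beside a strong domain: a run from 5385000 to 5415000, on the telomeric side of the domain at 5.4 Mb, averaged 0.68 in SuUR and 0.06 in yw.

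H3K27me2 runs were shorter. Besides the run from 21765000, the longest runs of higher H3K27me2 in SuUR were from 15215000 to 15250000 (8 windows, 0.20 in SuUR and −0.425 in yw) and from 3115000 to 3145000 (7 windows, 0.16 in SuUR and −0.46 in yw). The longest runs of lower H3K27me2 were from 8540000 to 8565000, inside the strongest H3K27me3 domain (6 windows, −0.60 in SuUR and −0.025 in yw), and from 20665000 to 20690000 (6 windows, −0.24 in SuUR and 0.44 in yw). Some extremes rested on single windows. The yw maximum of 1.865 at 21570000, where SuUR had −0.15, stood between windows of 0.715 and 0.67 in yw, and at 15925000 SuUR had its minimum of −1.2 and, 1 step on, 0.495.

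Seen in 1-Mb bins from the telomere to the pericentric end, H3K27me3 was highest from 8 to 9 Mb (0.31 in SuUR, 0.22 in yw) and lowest from 19 to 20 Mb (−0.22 in SuUR, −0.31 in yw). SuUR was the higher genotype in 17 of 23 bins as deposited, and in 11 of 23 after either of the other scalings. Each autosomal arm had, as deposited, a larger share of bins higher in SuUR than X had, and on 3R this was every bin. On X the difference was most positive from 9 to 10 Mb (0.17) and most negative in the last 2 bins (−0.15 from 21 to 22 Mb and −0.17 from 22 to 23 Mb). Without the windows near places that have none, the bin from 21 to 22 Mb turned to 0.09, with −0.15 in SuUR and −0.24 in yw, and that from 2 to 3 Mb was −0.02, against 0.01 with them. H3K27me2 had its lowest bin from 11 to 12 Mb in both genotypes (−0.12 in SuUR, −0.14 in yw), and its bin differences ran from −0.12 to 0.09, with 10 of 23 above 0.

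**Figure D5:**
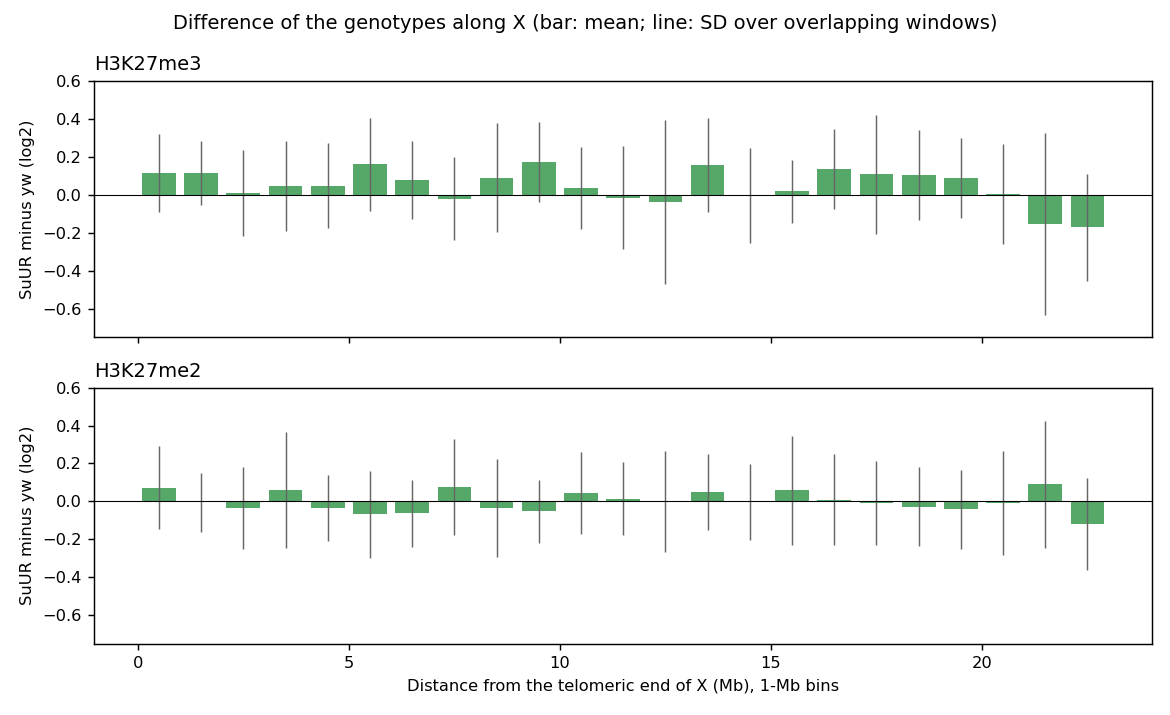
SuUR minus yw (log2) in 1-Mb bins along X against the distance in Mb from the telomeric end; bars are the mean of the windows of a bin and lines its SD over overlapping windows. As deposited, the H3K27me3 bars (top) are above 0 in 17 of 23 bins (11 of 23 after rescaling on the arms) and below 0 in the last 2, and the H3K27me2 bars (bottom) stay between −0.12 and 0.09. On each autosomal arm (not drawn) a larger share of H3K27me3 bins is above 0 as deposited.

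The ends of X differed from each other. Over the last 1 Mb before the pericentric end, H3K27me3 averaged −0.19 in SuUR and 0.06 in yw, a difference of −0.25 (SD over windows 0.47), and 29.5% of windows were higher in SuUR. The rest of X averaged a difference of 0.07. The pericentric ends of the autosomal arms had differences of −0.57 on 3L, −0.37 on 2L, −0.13 on 2R and 0.07 on 3R, so that X with all its windows ranked between 2L and 2R. Much of the value on X came from 1 stretch: the 200 kb from 21.6 to 21.8 Mb averaged −0.24 in SuUR and 0.53 in yw, a difference of −0.77, while the other 200-kb pieces from 21.2 Mb on differed by −0.04 to −0.18. Without the windows near places that have none, the pericentric difference of X was −0.07, which lies between the values given for 2R and 3R. Over the last 2 Mb with all windows the difference of X was −0.12.

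At the pericentric end H3K27me2 was raised to 0.11 in SuUR and 0.12 in yw, against −0.02 in SuUR and −0.02 in yw for the rest of X. The longest high run of H3K27me2 on X lay there, 25 windows from 21530000 to 21650000 with 0.37 in SuUR and 0.49 in yw. The pericentric ends of 2L, 2R and 3L were higher, at 0.27 to 0.30 in SuUR and 0.18 to 0.28 in yw, whereas that of 3R was lower, at −0.08 in SuUR and −0.06 in yw. Without the windows near places that have none, the H3K27me2 difference at the pericentric end of X was −0.08, against −0.01 with them, and the longest high run was one of 13 windows from 11990000 to 12050000 (0.28 in SuUR, 0.57 in yw). At the telomeric end, the first 1 Mb of X had H3K27me3 of −0.02 in SuUR and −0.13 in yw, a difference of 0.11 (0.05 renormalized over the 5 arms), within the 0.09 to 0.22 of the autosomal telomeric ends as deposited. H3K27me2 there was 0.07 in SuUR and 0.00 in yw, and its difference of 0.07 was above those of the arms (−0.03 to 0.03), but below the SD over windows of 0.22.

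The study had sorted H3K27me3 regions of salivary glands by the response to the SuUR mutation in earlier ChIP-chip data, made with another antibody, and had also listed regions under-replicated in wild type glands (UR). SuUR-sensitive regions (SSRs) had lost signal in the mutant there, and SuUR-non-sensitive regions (SNRs) had kept it. The study also plotted gland ChIP-seq signals from the Cell Signaling and Millipore antibodies. Over data points in all its SSRs it reported a skew to higher H3K27me3 in wild type, and none for H3K27me2. On X lay 37 of the 193 SSRs, 24 of the 158 SNRs and 20 of the 101 UR regions. A region was given the mean over windows whose centre it contained.

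The strong domains of X were SNRs. All 8 overlapped an SNR, none overlapped an SSR and 3 overlapped a UR region. Of the 24 SNRs 20 contained a window centre, with a median of 0.61 in SuUR and 0.18 in yw, and 16 of these 20 were higher in SuUR, with a median difference of 0.13. That difference was 0.04 with normalization over the 5 arms, 0.08 with profiles centred on the arms and 0.06 over the 7 SNRs that held a whole window. The autosomal SNRs had medians of 0.86 in SuUR and 0.62 in yw and a median difference of 0.21. Of the 126 autosomal SNRs with a window centre, 84.9% were higher in SuUR, against 80.0% on X. On X 16 SNRs were shorter than a window, so that their values also hold the chromatin around them. The 8 that were longer than a window were all above 0.5 in both genotypes, with medians of 1.315 in SuUR and 1.37 in yw. Taken singly, these 8 were higher in SuUR except for those from 8618540 to 8738090 and from 9582500 to 9670170. The highest was the SNR from 8501370 to 8570670 (2.36 in SuUR, 1.99 in yw), followed by that from 17646410 to 17712980 (1.83 in SuUR, 1.77 in yw), that from 5423420 to 5506140 (1.70 in SuUR, 1.56 in yw) and that from 4267430 to 4416030 (1.39 in SuUR, 1.34 in yw). The fifth, from 8618540 to 8738090, had 1.24 in SuUR and 1.41 in yw.

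The SSRs of X had moderate H3K27me3 and were split in direction. Their median was −0.03 in SuUR and 0.02 in yw, above the −0.185 in SuUR and −0.24 in yw of the X windows outside all 3 kinds of region, and the differences ran from −0.42 to 0.47 (SD 0.16) with 19 regions higher and 18 lower in SuUR. The median difference was 0.00, and with normalization over the 5 arms it was −0.07. No SSR reached a mean difference of 0.5 in either direction. The X windows outside had a median difference of 0.095, with 69.0% higher in SuUR. On the autosomal arms 61.3% of 150 SSRs were higher in SuUR, with a median difference of 0.06, and the windows outside had 0.0975. Of the X SSRs that overlapped a UR region 9 of 21 were higher in SuUR (median difference −0.02), and of those that did not, 10 of 16 (median difference 0.05). On the autosomal arms the shares were 60.3% of SSRs that overlapped a UR region and 62.5% of the others.

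The lowest SSR was that from 11928361 to 12337109, which contained the longest run of lower windows. It averaged −0.06 in SuUR and 0.36 in yw, a difference of −0.42. The SSR from 17833691 to 17945399 averaged −0.16 in SuUR and 0.04 in yw. The next were that from 7235000 to 7428029 (−0.125 in SuUR, 0.06 in yw), that from 21964340 to 22339160 (−0.13 in SuUR, 0.05 in yw) and that from 20567050 to 20883289 (−0.05 in SuUR, 0.11 in yw). Of these 5 the first was the only one beyond −0.21, and 4 overlapped a UR region.

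At the other end stood the SSR from 3894630 to 3966339 (0.37 in SuUR, −0.10 in yw), the only SSR of X above 0.25. The SSRs from 18920971 to 19018379, 4857350 to 4958299, 13320840 to 13457239 and 10836250 to 10963409 were higher in SuUR by 0.22 to 0.25. In these 5 regions yw lay between −0.12 and 0.03, so that SuUR had the higher level, at 0.13 to 0.37. H3K27me2 in the first was higher in SuUR as well (0.29 in SuUR, −0.03 in yw), whereas in the SSR from 4857350 to 4958299 it was lower in SuUR (−0.18 in SuUR, 0.13 in yw).

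The windows with large differences were placed unevenly among these regions. Of the 92 windows with lower H3K27me3, 59 lay in SSRs (64.1%), which held 21.6% of X windows, and 51 lay in UR regions (55.4%), which held 21.5%. None lay in an SNR, and 5 lay in one or within 100 kb of one (5.4%), against 22.4% of X windows. Of the 214 windows with higher H3K27me3, 33 lay in SSRs (15.4%) and 91 in an SNR or within 100 kb of one (42.5%). Neighbouring windows overlap, and 34 of the 59 belong to the single run around 12 Mb, so these shares describe a few places.

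H3K27me2 was higher in SSRs than outside them in both genotypes. The SSR median on X was 0.125 in SuUR and 0.14 in yw, against −0.06 in SuUR and −0.055 in yw in the windows outside. SuUR minus yw had a median of 0.00 over the SSRs, with 19 higher and 18 lower in SuUR, while on the autosomal arms the median was −0.05 and 35.3% were higher in SuUR. In the SNRs of X H3K27me2 had a median of −0.04 in SuUR and 0.06 in yw, with 7 of 20 higher in SuUR, against 40.5% of autosomal SNRs. The UR regions of X had a median difference of 0.03 for H3K27me3 (12 of 20 higher in SuUR) and of −0.00 for H3K27me2 (10 of 20). Of the autosomal UR regions, 63.0% were higher in SuUR for H3K27me3 and 42.0% for H3K27me2.

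The 2 marks were related to each other on X, though weakly in SuUR, and the same was seen on each autosomal arm. Over the 445 non-overlapping windows the Pearson coefficient between H3K27me3 and H3K27me2 was 0.16 in SuUR and 0.32 in yw, and Spearman's was 0.29 in SuUR and 0.50 in yw. On the arms Pearson's ran from 0.17 to 0.25 in SuUR and from 0.29 to 0.44 in yw. Spearman's ran there from 0.24 to 0.305 in SuUR and from 0.39 to 0.49 in yw. All windows of a profile come from the same ChIP and input library, so the coefficients are descriptions. The relation was seen at the low end: 114 windows were low in both marks, which is 22.8% of the windows low in H3K27me3 (6.32% of all X windows were low in H3K27me2) and 40.6% of those low in H3K27me2 (11.2% of all were low in H3K27me3). No window was low in H3K27me3 and high in H3K27me2, and 8 were high in both, which is 5.67% of the windows high in H3K27me3, near the 6.03% of all X windows that were high in H3K27me2. Between genotypes, the Pearson coefficient was 0.76 for H3K27me3 and 0.49 for H3K27me2, inside the ranges of the autosomal arms (0.61 to 0.86 and 0.45 to 0.58). By ranks the 2 marks were closer, with Spearman's at 0.56 for H3K27me3 and 0.51 for H3K27me2. The differences of the 2 marks had a Pearson coefficient of −0.10.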

How the data were processed

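The deposited profiles hold log2 ratios of ChIP over input. According to the labels and methods, the authors mapped reads with MOSAIK to dm3, scaled ChIP and input to read number (RPM), took log2 of the ratio in 50-kb windows at 5-kb steps and quantile normalized the genotypes within each mark. Whether replicates were pooled for the glands is not given in the sources used here. Such windows smooth features shorter than 50 kb, and the normalization removes differences of the whole genome. Read numbers did not come with the values, so depth and counting error are unknown.

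All X rows were read with Python 3.11.15, numpy 2.4.6 and pandas 2.3.3. Medians and coefficients used every 10th window, and shares, runs and bins used all windows. High and low were set at the 95th and 5th percentile of the autosomal arms, and differences at 0.5. Named stretches were the 8 strongest H3K27me3 domains, the longest runs, the 5 SSRs at each end and the 5 highest SNRs. The script was tested on simulated profiles. The X windows were taken by chromosome name, and the SSR, SNR and UR lists were those of the study. The choice of X and of the named stretches was made with earlier results of these data known. Genes were not placed, since no dm3 annotation was used here.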

Additional observations from a re-analysis of the deposited data

How the results depend on the processing

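Of 174 alternative values for 41 results, 136 kept their direction and, percentile ranks aside, stayed within a tolerance. For medians over X windows this was the SD of 1-Mb bins along X, and for region medians the SD over regions. For the ends it was the SD over windows, for coefficients 0.1, and for shares and counts 1.5 times the value. The tolerance at the pericentric end was wide (0.47 for H3K27me3), so that −0.07 counted as kept beside −0.25. Within the tolerances, the median SuUR minus yw of H3K27me3 on X was 0.0025 to 0.075 and that over SNRs 0.045 to 0.096. In percentile ranks, which have another unit, the H3K27me3 gap of X to the arms kept its direction but lay beyond the spread along X in both genotypes. The small medians near 0 changed sign: the median SuUR minus yw of H3K27me3 over SSRs was −0.0052 with only windows wholly inside, −0.046 with windows weighted equally, −0.074 with normalization over the 5 arms and −0.055 with profiles centred on the arms. Over UR regions it was −0.021 with windows weighted equally, −0.053 with normalization over the 5 arms and −0.029 centred. For H3K27me2 over SSRs it was −0.036 wholly inside, −0.022 weighted equally and −0.0035 renormalized. The yw H3K27me2 median of X was 0.005 over all windows, X minus the arms in SuUR was 0.005 without the pericentric ends, the pericentric H3K27me2 difference was 0.018 over 2 Mb, and the coefficient of the differences of the marks was 0.0059 from the 6th window on. The causes were not tested.

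Shares of X windows followed the thresholds. At 0.25, H3K27me3 was higher in SuUR in 21.2% and lower in 10.1%, and H3K27me2 higher in 14.3% and lower in 13.8%. At 1 these were 0.0449%, 0.539%, 0.0899% and 0.0674%. Renormalized over the 5 arms, H3K27me3 was higher in 2.18% and lower in 3.75%, and from the 6th window on H3K27me2 was lower in 0.449%. With the 90th and 10th percentile, H3K27me3 was high in 7.05% and low in 19.2%, and H3K27me2 high in 11.4% and low in 12.0%, with 50 high and 155 low runs for H3K27me3 and 118 high runs for H3K27me2. At 0.25, runs numbered 227 higher and 101 lower for H3K27me3 and 159 higher and 183 lower for H3K27me2. Shifted to the autosomal median, 5.82% of X windows were low in H3K27me3. Without windows near places that have none, lower H3K27me3 formed 9 runs. That shift, and leaving out windows near places without any, were chosen after seeing the data. No paired analysis was possible because each gland profile comes from 1 ChIP library and 1 input library.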
